A study of Hernandia nymphaeifolia with 9 samples.

Results

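In leaves of Hernandia nymphaeifolia, a tree of tropical coasts, 15 assembled genes had a steady summed read count under salt and a different division of that count among their isoforms. They were chosen by these measured values. A gene had to average under 500 CPM in control leaves (CPM, the gene's count scaled to a common library total), reach at least 10 CPM in every library, and have its 3 group means within 1.5-fold of each other. At least 1 of its isoforms also had to take, in all 6 salt libraries, a share of the gene's counts at least 20 percentage points above the highest or below the lowest control share. Of the 315331 assembled genes, 7873 met the limits on level and 6309 of those had 2 or more isoforms. The share limit then left 15 genes with 23 shifted isoforms, out of 55 isoforms assembled for these genes.

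The study exposed 2-year-old seedlings to salt and sequenced polyadenylated leaf RNA, 1 library per seedling. The 3 groups used here had 3 seedlings each: 300 mM NaCl for 7 d, 300 mM NaCl for 14 d, and a control in fresh water, for which the labels state no sampling day. All seedlings, control ones included, were under water up to the branches for 3 h in every 12 h. Other salt levels were not analysed here. The libraries held between 13166552 and 14201943 estimated counts. Over 29518 transcripts whose mean CPM was at least 5, 14 d replicate 3 had Pearson correlations of log2 CPM of at most 0.878 with the other 14 d libraries, which correlated at 0.952 with each other. Control replicate 1 reached at most 0.905 with the other controls, which correlated at 0.947.

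A gene can give several transcripts through alternative splicing, alternative starts and alternative polyadenylation sites. In plants, retention of an intron is the most frequent kind of alternative splicing, and a retained intron often brings a premature stop codon. In Arabidopsis, salt and other stresses are known to alter the splicing of many genes, among them genes of splicing factors of the SR family. A change of this kind can leave the summed level of a gene as it was. The isoforms here are those of a de novo assembly, in which splice forms, alleles and near-identical gene copies can all appear as isoforms of 1 gene, and these were not told apart. The identifiers are not paired with names, sequences or lengths in the files, so no function is given for any gene and leaf markers could not be checked. In whole leaves, a change in the mix of cells and a change of isoform use within cells cannot be told apart. Shares are of estimated counts, and a longer isoform draws more counts per molecule, so a share of counts is not a share of molecules.

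The members are numbered 1 to 15 by the gap of their lead isoform, the distance between the salt libraries and the control libraries in percentage points. The lead isoform is the shifted isoform with the largest gap in its gene. The gap was 43.3 points in member 1, 29.6 in member 2 and 20.0 in member 15. Just inside the limit of 20 points lay members 15, 14 and 13 with 20.0, 21.4 and 21.6 points, and just outside it lay genes with 19.7, 18.8 and 16.7 points. The share was higher in salt for 13 shifted isoforms and lower in salt for 10. All these differences from control are what the members were chosen by, so they are described and no test against control is given for the members.

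**Figure D1:**
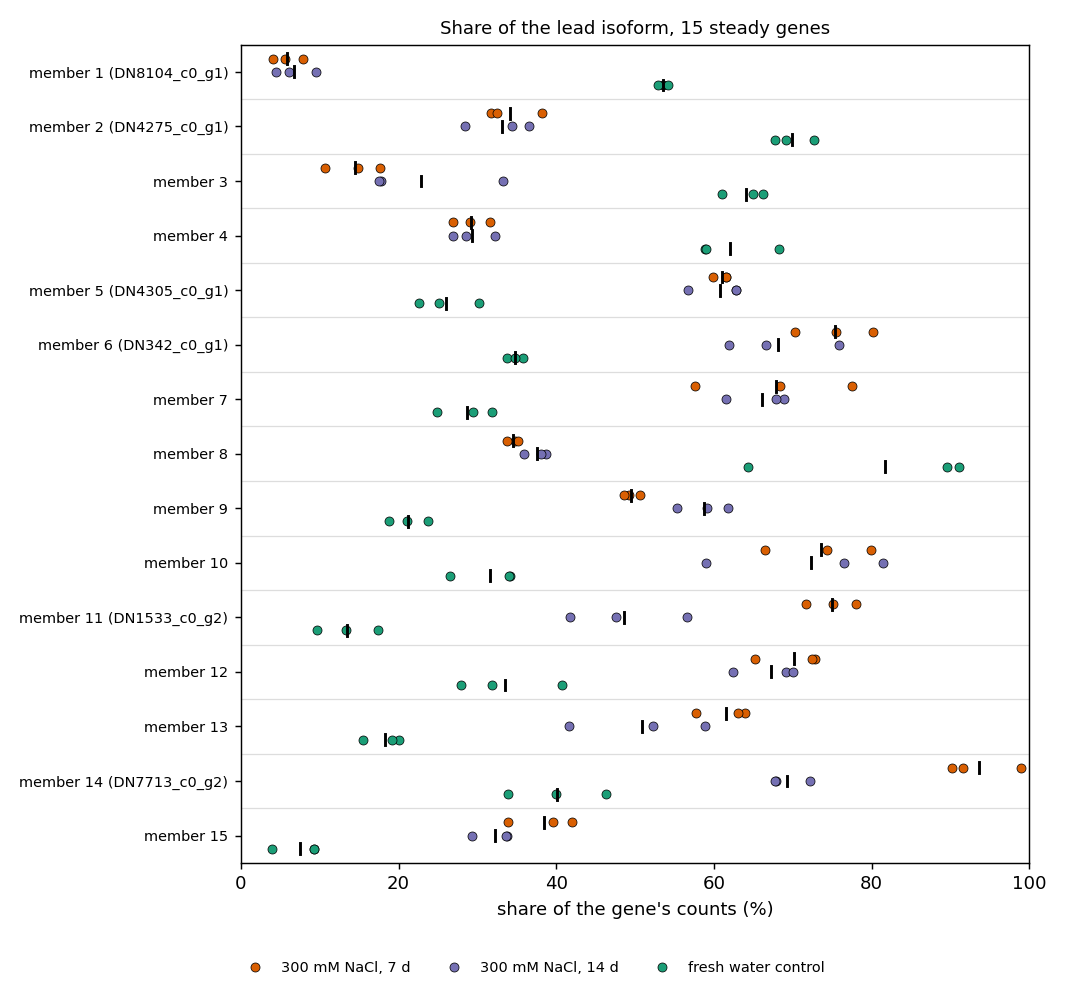
Share of the lead isoform in its gene's counts (%, horizontal axis) for the 15 members, with 1 point per library and a bar at the mean of the 3 libraries of a group. In each member all 6 salt libraries lie at least 20 points to 1 side of the 3 control libraries, by 43.3 points in member 1 and 20.0 in member 15.

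Member 1, TRINITY_DN8104_c0_g1, had the widest gap of the 15 over all 9 libraries. Its isoform i3 took 4.1, 7.9 and 5.6% of the gene's counts in 7 d leaves, 6.1, 9.6 and 4.5% in 14 d leaves, and 53.6, 52.9 and 54.2% in control leaves. The most used isoform of control leaves was thus a minor one in every salt library. Isoform i12 held 71.7, 72.0 and 70.7% in 7 d leaves, 71.1, 67.5 and 62.5% in 14 d leaves, and 29.3, 29.3 and 31.2% in control leaves. Its gain in share was 83.2% of the loss of i3, taken over the 6 salt libraries. Isoform i4 also had a higher share, with 16.5, 12.6 and 18.3% in 7 d leaves, 14.5, 13.2 and 21.6% in 14 d leaves, and 6.3, 4.7 and 3.2% in control leaves. In CPM, i3 stood at 5.05 ± 1.46 in 7 d leaves, 5.42 ± 2.34 in 14 d leaves and 61.0 ± 4.42 in control leaves (SD, n = 3 each). The summed gene stood at 86.6 ± 3.35 CPM in 7 d leaves, 79.8 ± 3.52 CPM in 14 d leaves and 114 ± 7.82 CPM in control leaves (SD, n = 3 each). All 6 salt libraries lay below the 3 control libraries, within the allowed 1.5-fold.

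Member 2, TRINITY_DN4275_c0_g1, also had another main isoform in salt than in control leaves. Isoform i32 held 31.8, 38.2 and 32.5% in 7 d leaves, 34.4, 36.5 and 28.5% in 14 d leaves, and 72.7, 69.2 and 67.8% in control leaves. Isoform i8 held 50.6, 49.4 and 50.4% in 7 d leaves, 52.7, 48.9 and 54.5% in 14 d leaves, and 17.7, 19.1 and 20.2% in control leaves. The gain in share of i8 was 88.5% of the loss of i32. Summed, the gene was at 70.2 ± 13.9 CPM in 7 d leaves, 57.4 ± 11.6 CPM in 14 d leaves and 56.5 ± 12.8 CPM in control leaves (SD, n = 3 each), and the groups overlapped.

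Members 5 and 6 have only 2 isoforms each, so that 1 share is the complement of the other and both isoforms have the same gap. In member 5, TRINITY_DN4305_c0_g1, isoform i1 held 61.5, 59.8 and 61.6% in 7 d leaves, 62.8, 62.8 and 56.7% in 14 d leaves, and 30.2, 25.1 and 22.6% in control leaves. Its spread was 0.995 points in 7 d leaves, 3.52 points in 14 d leaves and 3.87 points in control leaves (SD, n = 3 each). The mean of 7 d leaves lay 35.0 points from that of control leaves, a distance that the choice required to be large. In member 6, TRINITY_DN342_c0_g1, isoform i6 held 80.2, 70.2 and 75.5% in 7 d leaves, 66.6, 62.0 and 75.9% in 14 d leaves, and 33.7, 35.7 and 34.7% in control leaves. The control libraries of member 6 lay within 1.98 points of each other, while its 14 d libraries spread over 13.9 points. The summed level of member 5 was 124 ± 19.4 CPM in 7 d leaves, 94.7 ± 11.5 CPM in 14 d leaves and 104 ± 27.5 CPM in control leaves (SD, n = 3 each). That of member 6 was 60.7 ± 8.68 CPM in 7 d leaves, 59.9 ± 8.14 CPM in 14 d leaves and 44.8 ± 12.1 CPM in control leaves (SD, n = 3 each). Groups overlapped in both genes.

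**Figure D2:**
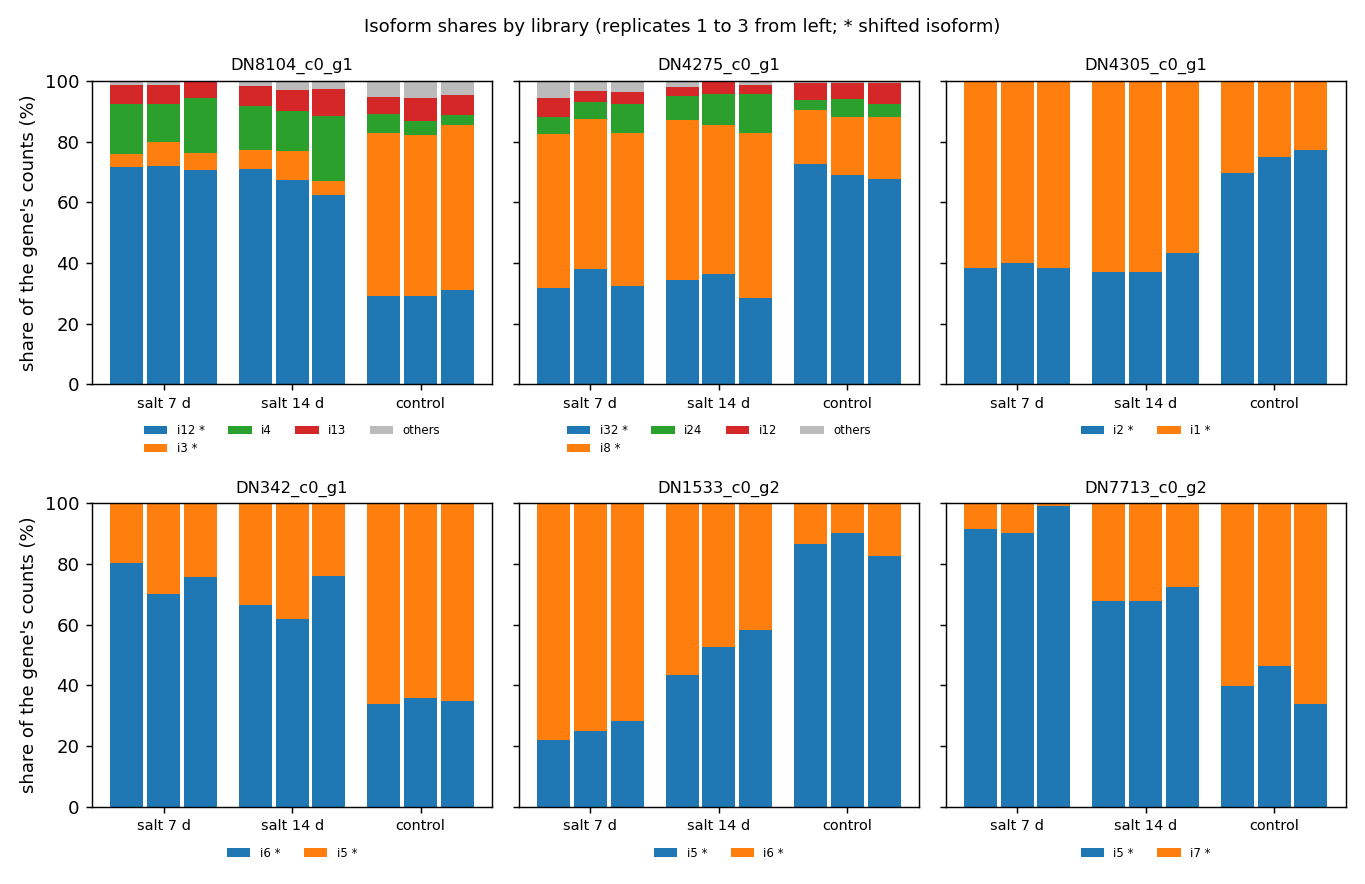
Shares of all isoforms in the gene's counts (%, vertical axis) in each of the 9 libraries for the 4 members named by gap and for members 11 and 14, named for their difference between the salt times; isoforms with a mean share under 3% are drawn together in grey. In member 1 isoform i3 (orange) took 4.1 to 9.6% in salt libraries and 52.9 to 54.2% in control libraries.

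The share limit divided the members in 2. In members 1, 2, 4, 5, 6, 7, 11 and 14, 2 isoforms passed it, 1 in each direction. In the other 7 members a single isoform passed it. Isoform i2 of member 3 narrowly missed it, with a gap of 19.2 points. Of the 15 genes, 5 have 2 isoforms. In these, members 5, 6, 7, 11 and 14, the shares are complements, so both isoforms had to pass. The division thus depends on the limit and on the number of isoforms. In the 10 with more, the isoform that moved most against the lead matched 54.3 to 100.3% of the difference of the lead, with a median of 64.0%. Members 1 to 4 were the only ones among those 10 in which it matched 80% or more. In members 9, 10, 12, 13 and 15, the isoform past the limit had a higher share in salt, and 2 or 3 others each lost 5 points or more.

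Among the members with a lower share of the lead, isoform i5 of member 3 had mean shares of 14.4 ± 3.52% in 7 d leaves, 22.8 ± 8.99% in 14 d leaves and 64.1 ± 2.72% in control leaves (SD, n = 3 each). Its 14 d libraries held 17.8, 17.5 and 33.2%, so that replicate 3 was nearest to control. Without that library the gap of member 3 would be 43.3 points, against 27.8 with it. In member 4 the lead held 29.2 ± 2.39% in 7 d leaves, 29.3 ± 2.73% in 14 d leaves and 62.0 ± 5.40% in control leaves (SD, n = 3 each). The lead of member 8 held 34.8, 33.8 and 35.1% in 7 d leaves, 38.7, 35.9 and 38.1% in 14 d leaves, and 64.3, 89.5 and 91.1% in control leaves. Control replicate 1 of member 8 thus stood between the salt libraries and the other controls, and it alone set the gap of member 8 at 25.7 points. Without that library the gap would be 50.9 points, wider than the 43.3 points of member 1. A further isoform of member 8 took 33.8 to 42.6% in the salt libraries and 28.4% in control replicate 1. It had a count of 0 in control replicates 2 and 3, which allows a share of up to 0.482% and 0.467% (3 counts of the gene's counts in each library).

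Of the members whose lead had a higher share in salt, member 15 had the lowest control share. In member 15 the lead held 38.4 ± 4.18% in 7 d leaves, 32.2 ± 2.50% in 14 d leaves and 7.51 ± 3.06% in control leaves (SD, n = 3 each), yet another isoform was the most used one in every group. In member 13 the lead held 61.6 ± 3.40% in 7 d leaves, 50.9 ± 8.67% in 14 d leaves and 18.2 ± 2.39% in control leaves (SD, n = 3 each). Member 9 had 49.5 ± 1.003% in 7 d leaves, 58.7 ± 3.22% in 14 d leaves and 21.2 ± 2.47% in control leaves (SD, n = 3 each). The leads of members 7, 10 and 12 had mean shares of 67.8, 73.6 and 70.2% in 7 d leaves, 66.1, 72.3 and 67.2% in 14 d leaves, and 28.7, 31.6 and 33.5% in control leaves. Within 7 d leaves member 7 had the widest spread of the 15, with an SD of 10.02 points, and within 14 d leaves member 10, with 11.8 points. Within control leaves it was member 8, with 15.03 points.

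Over all 23 shifted isoforms, the SD of the share within a group had a median of 3.40 points in 7 d leaves, 3.95 points in 14 d leaves and 3.54 points in control leaves. The 95% Wilson intervals of single shares, which cover counting error only, reached 1.10 to 6.49 points to each side, with a median of 3.18. The genes behind them held 195 to 2966 counts per library. The share limit favours isoforms with little spread, so these values describe the members only. The other steady genes had 18935 isoforms with a mean share of 5% or more. Their median SD was lower than that of the shifted isoforms, with 2.44 points in 7 d leaves, 2.56 in 14 d leaves and 2.72 in control leaves. The 2 sets were not matched on the size of the share, so this does not show that members vary more.

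The most used isoform of control leaves was replaced by another in 14 of 15 members at 7 d, in 13 at 14 d and in 13 at both times. Member 15 kept its control isoform at both times and member 11 at 14 d. Among the other 6294 steady genes with 2 or more isoforms, the same held for 10.96% at 7 d, 10.2% at 14 d and 6.16% at both times. The share limit uses these values, and the counts are a description. Members had a median of 3 isoforms, and the other steady genes a median of 4. The most used isoform held a median of 62.0% of the counts in control leaves in members and 59.0% in the other steady genes. When 7 d leaves were set apart by the same share limit from both other groups, 9 steady genes met it, and 4 did so with 14 d leaves set apart; these counts were not tested.

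**Figure D3:**
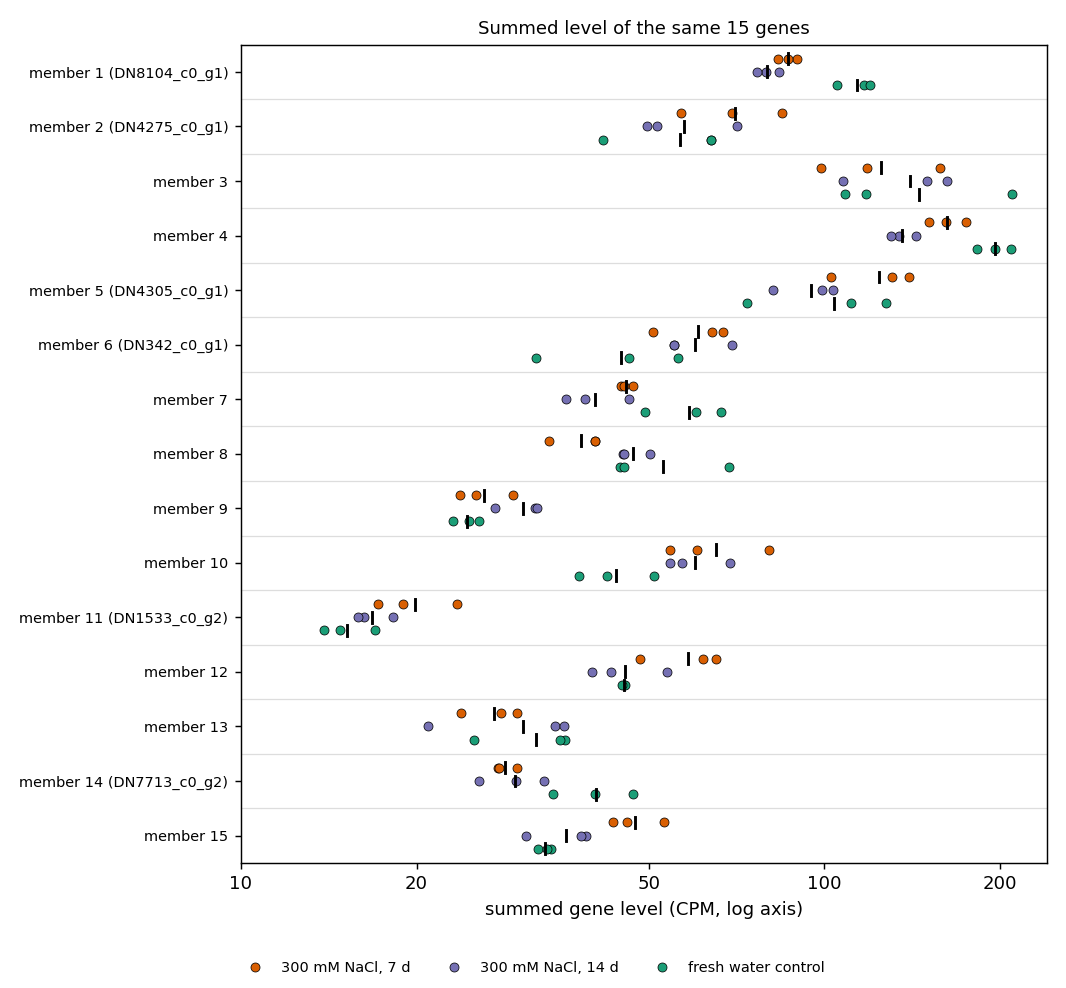
Summed level of the 15 members (CPM, log axis), with 1 point per library and a bar at the group mean. The means of the 3 groups differ by 1.16 to 1.48-fold within a gene, and the libraries of salt and control overlap in 10 of the 15 members.

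The summed level, which the choice held within 1.5-fold, differed between the largest and the smallest group mean by 1.16 to 1.48-fold, with a median of 1.36-fold. The members ran from 13.9 to 210 CPM over all libraries. In 5 of 15 members the 6 salt libraries did not overlap the 3 control libraries, beside 15.9% of the other 6294 steady genes with 2 or more isoforms. Because the choice limited these levels, they are a description.

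The difference in isoform use between the salt times was not itself a contrast of the share limit, but the limit restricted it. Every salt library had to lie at least 20 points from the control libraries, on 1 side of them. A gene whose share at either time lay nearer to control could not be a member. The values between the times thus describe members under this limit, to which the other genes set beside them were not held. All 23 shifted isoforms had enough counts to be tested, as did 51 of the 55 isoforms of the members. The question was whether the shifted use of 14 d leaves differed from that of 7 d leaves. The test of isoform use asks whether isoforms of 1 gene differ by different factors. It called 1 of 15 members (edgeR, Simes p per gene, adjusted over all 18721 genes with 2 or more tested isoforms), beside 3.05% of all genes tested and 3.32% of the steady ones. An unadjusted p under 0.05 was reached by 3 members, beside 1895 of all 18721 genes tested. A p above the threshold does not show that use was the same at both times. The absolute difference in mean share between 14 d and 7 d had a median of 3.00 points over the 23 shifted isoforms, from 0.0780 to 26.3 points. For the 18935 isoforms of the other steady genes that held a mean share of 5% or more, the median was 2.55 points. On the scale of the fit, the absolute log2 difference in use had a median of 0.122 over the shifted isoforms. Over all tested isoforms of genes with 2 or more, it was 0.235. That wider set was held neither to the limits on level nor to a minimum share. The order on the 2 scales can therefore not be compared. Shares of 14 d and 7 d libraries did not overlap in 7 of 23 shifted isoforms, or 30.4%, beside 24.2% of those 18935 isoforms.

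The called gene, member 14 or TRINITY_DN7713_c0_g2, was not among the genes fixed to be named and is named for this result. It has 2 isoforms. Isoform i7 held 32.2, 32.3 and 27.8% of its counts in 14 d leaves, 8.4, 9.8 and 1.0% in 7 d leaves, and 60.1, 53.6 and 66.1% in control leaves. The 14 d libraries thus lay between those of 7 d and of control, with no overlap with 7 d. Their distance from control was required by the share limit. Isoform use differed between 14 d and 7 d with an edgeR adjusted p = 0.00675, and the call was kept in 16 of 16 alternatives, with adjusted p from 0.00172 to 0.0372. The level of i7 was 9.05 ± 1.42 CPM in 14 d leaves and 1.78 ± 1.29 CPM in 7 d leaves (SD, n = 3 each), a log2 difference of 2.28 (SE 0.49, edgeR adjusted p = 0.0237). In control leaves it was 24.4 ± 5.71 CPM (SD, n = 3). Isoform i5 was at 20.4 ± 2.71 CPM in 14 d leaves and 26.5 ± 2.49 CPM in 7 d leaves (SD, n = 3 each), a log2 difference of -0.44 (SE 0.15, edgeR adjusted p = 0.116) that was not called. The summed gene stood at 29.4 ± 3.79 CPM in 14 d leaves and 28.3 ± 1.20 CPM in 7 d leaves (SD, n = 3 each).

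Among the shifted isoforms, 2 of 23 differed in level between 14 d and 7 d (edgeR quasi-likelihood, adjusted over 98906 transcripts), beside 6.64% of all transcripts and 3.19% of isoforms of steady genes. Both were higher at 14 d, beside 4.3% of all transcripts called higher and 2.35% called lower. An unadjusted p under 0.05 was reached by 10, a count given without its share over all transcripts. Beside i7 of member 14, the other was isoform i5 of member 11, TRINITY_DN1533_c0_g2, which is likewise named for this result. It stood at 8.62 ± 1.37 CPM in 14 d leaves and 4.91 ± 0.211 CPM in 7 d leaves (SD, n = 3 each), a log2 difference of 0.75 (SE 0.16, edgeR adjusted p = 0.0251). Its share was 43.4, 52.5 and 58.3% in 14 d leaves, 21.9, 24.9 and 28.3% in 7 d leaves, and 86.7, 90.3 and 82.6% in control leaves. In this gene too the 14 d libraries lay between those of 7 d and of control. The test of use for member 11 gave an edgeR adjusted p = 0.0623, with 0.00278 to 0.355 over 16 alternatives, of which 2 called it. Both level calls depended on single libraries, as did the number of calls over all transcripts, 6571 of 98906 with all libraries. Without 7 d replicate 1 there were 0 calls, beside 3041 of all 106402 transcripts. Without 14 d replicate 2 there were also 0, beside 2427 of 105668. Without 7 d replicate 2 or 7 d replicate 3 the 1 remaining call was i7 of member 14, beside 3605 of 106301 and 2352 of 106752. Without 14 d replicate 1 it was i5 of member 11, beside 3206 of 106212.

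**Figure D4:**
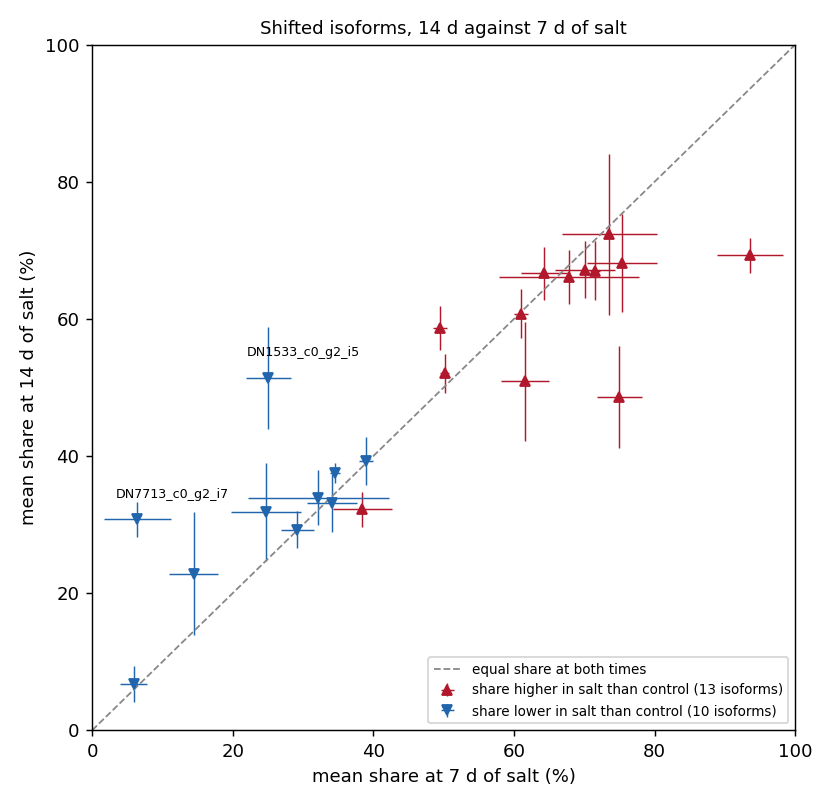
Mean share of the 23 shifted isoforms at 14 d of salt (%, vertical axis) against that at 7 d (%, horizontal axis), with SD over 3 libraries as bars and a dashed line of equal shares. The median absolute difference is 3.00 points; both isoforms of member 14 (TRINITY_DN7713_c0_g2) differ by 24.3 points and both of member 11 (TRINITY_DN1533_c0_g2) by 26.3 points, towards control at 14 d.

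In mean share, 19 of the 23 shifted isoforms were nearer to control at 14 d than at 7 d and 4 were further from it. Of the 18935 isoforms of the other steady genes given above, 55.4% were nearer. The difference between these shares was not tested. Since complementary isoforms of 1 gene repeat each other, these are not 23 separate cases. Of the 7 isoforms without overlap between the times, 6 were nearer to control at 14 d. The exception was the lead of member 9, with 61.8, 59.1 and 55.3% in 14 d leaves, 50.6, 49.3 and 48.6% in 7 d leaves, and 18.8, 21.1 and 23.8% in control leaves. Its use was not called between the times (edgeR adjusted p = 1). Among the 6 salt libraries, the lead share nearest to control was that of 14 d replicate 2 in 6 members and of 14 d replicate 3 in 5. It was that of 7 d replicate 1 in 0 members. Without 14 d replicate 3, the test of use between the times still called 1 member and the test of level 2 isoforms.

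In summed level, 0 of 15 members were called between 14 d and 7 d (edgeR), beside 11.3% of all 62564 tested genes and 4.57% of the steady ones. An unadjusted p under 0.05 was reached by 4, a count given without its share over all genes. DESeq2 called 1, member 15, beside 6178 of all 62487 genes. Without 7 d replicate 2 or without 14 d replicate 3, edgeR called 1, member 12. The choice limited this contrast as well, so the count is a description.

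The assembly places genes that share sequence in 1 component, and reads can be divided among them by estimation. Any other gene in the component was found for 9 members, or 60%, and for 67.1% of the other steady genes with 2 or more isoforms. Of the members, 7 had another gene with a mean of 10 CPM or more in their component, or 46.7%, as had 35.1% of those other steady genes. These were 13 neighbouring genes in all. Against control, edgeR called 4 of them higher and 2 lower at 7 d, beside 25.2% of all tested genes. It called 1 higher and 1 lower at 14 d, beside 16.4%. Between 14 d and 7 d edgeR called 0 of the 13, beside 11.3% of all tested genes, with log2 differences from -0.42 to 0.57. DESeq2 likewise called 0, and 4 reached an unadjusted p under 0.05 in edgeR, a count given without its share over all genes. The part of such shared reads in the shares of the members was not tested.

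The number of members depended on single libraries. Without control replicate 1, 26 genes met the rule, of which 14 were among the 15, and without 14 d replicate 3, 21 genes met it, again with 14 among the 15. Leaving out any other library gave 14 to 19 genes, with 13 to 15 among the 15.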

How the data were processed

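The authors deposited 1 table of estimated counts per assembled transcript, as whole numbers without scaling between libraries. The submitters' processing notes name FastQC, HISAT2 and Salmon; they state no versions, roles, assembly settings or filters. The part of an identifier before its final isoform number was taken as the gene, counts were summed per gene, and CPM is the count over the column total, on the usual CPM scale.

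Genes were chosen by the limits given above. Members and comparisons were chosen with earlier results of these data known. The lead isoform has the largest gap; ties in genes with 2 isoforms went to the isoform higher in salt, a choice made after seeing the values. By rule, the 2 genes with the largest gap in each direction are named. Member 14 is named because its isoform use and the level of its isoform i7 were called between the salt times. For member 11, only the level of its isoform i5 was called, and it is named for that.

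Transcripts and summed genes were fitted on all 9 libraries with edgeR 4.0.16 in R 4.3.3 (TMM scaling, expression filter with a minimum count of 10, 1 mean per group, quasi-likelihood test). Isoform use was tested with diffSpliceDGE and Simes p per gene. The p-values were adjusted by Benjamini-Hochberg over all features tested, with a threshold of 0.05, and log2 values are fitted fold changes. Alternatives used limma 3.58.1 and DESeq2 1.42.0. Depth was 13166552 to 14201943 counts per library; Wilson intervals at 95% cover counting error only. Same-numbered libraries were not treated as pairs. Calls of the members against control, planned as a description, are left out because the members were chosen on those contrasts. Shared reads are divided by estimation, so isoform counts carry an error beyond sampling that the table does not give.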

Additional observations from a re-analysis of the deposited data

Results flagged for a closer look

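The direct test of 14 d against 7 d of salt passed the threshold for 3 values. Isoform use of TRINITY_DN7713_c0_g2 differed with an edgeR adjusted p = 0.00675; isoform i7 held 30.7 ± 2.58% of the gene's counts at 14 d and 6.42 ± 4.73% at 7 d (SD, n = 3 each), with all 3 libraries of 14 d above all 3 of 7 d. For the level of its isoform i7, the log2 difference of 14 d from 7 d was 2.28 (SE 0.49, edgeR adjusted p = 0.0237). Isoform i5 of TRINITY_DN1533_c0_g2 had a log2 difference in level of 0.75 between 14 d and 7 d (SE 0.16, edgeR adjusted p = 0.0251), and its share was 51.4 ± 7.47% at 14 d and 25.0 ± 3.20% at 7 d (SD, n = 3 each), again without overlap. Both calls of level were lost at a threshold of 0.01 and without 7 d replicate 1 or 14 d replicate 2, with 0 of 23 isoforms called in each case. Calls over all transcripts fell there too, from 6571 of 98906 to 1905 of 98906, 3041 of 106402 and 2427 of 105668, in that order. The call of use was kept in 16 of 16 alternatives.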

How the results depend on the processing

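The number of member genes and of shifted isoforms followed the limits: a share gap of 10 points gave 73 genes with 101 isoforms, and a gap of 30 points 1 gene with 2. The tighter of the limits tried on group means gave 4 genes with 5 isoforms, and within 2-fold 23 genes with 36. With CPM over TMM-scaled library sizes in place of column totals, 13 of the 15 genes and 19 of the 23 isoforms met the rule. With 1 library left out at a time, there were 14 to 26 genes and 22 to 36 isoforms. Between 14 d and 7 d, isoform use was called in 2 members by the F test per gene, beside 1358 of all 18721 genes. It was called in 2 by limma-voom, beside 1020 of 18721, and in 1 to 1 with a library left out. Shifted isoforms called in level between the times numbered 0 at a threshold of 0.01, beside 1905 of 98906 transcripts. They numbered 4 in a fit of the 2 groups alone, beside 6466 of 88995, and 4 with DESeq2, beside 8484 of 98718. With a library left out they numbered 0 to 3, beside 2352 to 8827 of all transcripts. Summed level between the times was called in 1 member with DESeq2 size factors, beside 7034 of 62564 genes. It was called in 1 with DESeq2, beside 6178 of 62487, and in 0 to 1 with a library left out. The cause of these changes was not tested. Gaps without 1 library, tried after seeing the data, would place member 8 first without control replicate 1, with 50.9 points against 25.7, so the order of the members rests in part on that library.

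Isoform use between the times changed sign with a library left out for i3 of TRINITY_DN8104_c0_g1 (log2 difference from -0.13 to 0.49), i32 of TRINITY_DN4275_c0_g1 (-0.14 to 0.054) and i1 of TRINITY_DN4305_c0_g1 (-0.039 to 0.040); none of the 3 was called. With the replicate number as a block, 0 shifted isoforms were called in level and isoform use was still called in 1 member. Deviations of same-numbered 14 d and 7 d libraries correlated at 0.0238, 0.225 and 0.0623, and not every pair was over 0.1, so the numbers were not taken as pairs. As a hint from the data towards shared numbers, 4 of the 6 libraries correlated best with their own number between 14 d and 7 d. Between 7 d and control only 1 of 6 did, and likewise 1 of 6 between 14 d and control. Depth limits single shares to within 1.10 to 6.49 points of counting error.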
